A study of Mus musculus with 15 samples.

Results

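The genes followed here encode the enzymes that place double bonds into fatty acids and lengthen them: the desaturases Scd1, Scd2, Fads1, Fads2 and Fads3 and the elongases Elovl1, Elovl3, Elovl5, Elovl6 and Elovl7. They were picked by symbol and are 10 of the 23995 gene symbols in the files, and all 10 were listed in every library. The tissue is periprostatic fat, a white fat depot next to the prostate, from 15 male C57BL/6J mice, 1 library per mouse and 5 mice per group. Mice of the LFD group ate a diet with 10 kcal% fat and had no implant. Mice of the HFD placebo group were given a 60 kcal% fat diet and a placebo pellet. Mice of the HFD estradiol group ate the 60 kcal% diet and carried a pellet of 0.25 mg 17beta-estradiol made to last 60 days. All mice started their diet at 6 weeks of age, the pellets were placed 12 weeks later, and tissue was taken after another 8 weeks, at 26 weeks of age. Diet and pellet surgery therefore change together between LFD and either high-fat group, and pellets deliver estradiol to the whole animal, not to this depot alone.

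Values are FPKM, a fragment count set against transcript length and library size, divided by 1 scaling factor per library and called scaled FPKM below. A gene was tested if it reached a scaled FPKM of 1 in at least 5 of the 15 libraries. Of the 10 genes, 7 did so, and Fads2, Elovl3 and Elovl7 did not. Elovl6 passed in exactly 5 libraries, 4 of them LFD. A gene can pass through the group where it is high, and its call against a low group is then not independent of the filter. Fold changes are differences in mean log2(scaled FPKM + 1), a scale that shrinks the change of low genes, and a gene is called at a limma adjusted p below 0.05, adjusted over all 5625 tested genes. For a 2 kb transcript, an estimated 20.6 to 40.02 fragments stood behind each unit of scaled FPKM in LFD libraries, with 34.8 to 223 for HFD placebo and 36.8 to 96.1 for HFD estradiol. All LFD libraries were sequenced on lane 5 and all HFD estradiol libraries on lane 6, while HFD placebo had libraries 1 to 3 on lane 5 and libraries 4 and 5 on lane 6. Directions are relative to the median gene: with FPKM as deposited the median of all genes itself shifted by 0.77 between HFD placebo and LFD, by -0.27 between HFD estradiol and HFD placebo and by 0.49 between HFD estradiol and LFD. With each library set to a constant sum these shifts were 0.28, -0.032 and 0.24. The share of called genes that were higher was 49.3%, 47.2% and 51.5% in the 3 comparisons with the factors used, 99.4%, 4.71% and 100% as deposited and 91.6%, 31.5% and 95.04% with a constant sum.

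As background, stearoyl-CoA desaturases turn the saturated fatty acids palmitate and stearate into the monounsaturated palmitoleate and oleate, and oleate is a main fatty acid of the triglyceride stored in fat cells. FADS2 and FADS1 take turns with the elongase ELOVL5 to turn dietary linoleic and linolenic acid into arachidonic and eicosapentaenoic acid. FADS3 desaturates sphingoid bases. ELOVL6 lengthens palmitate to stearate, ELOVL1 makes very long saturated and monounsaturated chains for ceramides, ELOVL3 is known from brown fat and skin glands, and ELOVL7 prefers saturated very long chains. Scd1, Fads1, Fads2 and Elovl6 are known targets of the transcription factor SREBP-1c, which Srebf1 encodes.

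The promoters of neighbouring or paired genes that differed in direction are shown to let their sequence be compared. RefSeq (GRCm38.p6) promoters, 250 bases before and 50 bases after the start site, were at hand for 6 of the 10 genes, and Scd1, Scd2, Fads1 and Elovl3 are named only. Capitals mark matches on either strand to the sterol regulatory element TCACNCCAC, the CCAAT box CCAAT, the E-box CACGTG or the TATA box TATAAA. Elovl6, which fell in HFD placebo, Elovl1 and Fads3, which rose, Elovl5, which was not called, and Fads2, which lay under the tested level, read as follows.
Elovl6 (chr3:129532136-129532435, plus strand, 5′ to 3′): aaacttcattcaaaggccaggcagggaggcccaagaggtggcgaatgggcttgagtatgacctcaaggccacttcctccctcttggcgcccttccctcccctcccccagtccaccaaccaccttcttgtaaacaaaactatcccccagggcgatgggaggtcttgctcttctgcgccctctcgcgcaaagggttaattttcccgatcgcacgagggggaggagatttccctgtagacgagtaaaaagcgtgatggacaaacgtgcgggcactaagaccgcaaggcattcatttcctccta
Elovl1 (chr4:118427843-118428142, plus strand, 5′ to 3′): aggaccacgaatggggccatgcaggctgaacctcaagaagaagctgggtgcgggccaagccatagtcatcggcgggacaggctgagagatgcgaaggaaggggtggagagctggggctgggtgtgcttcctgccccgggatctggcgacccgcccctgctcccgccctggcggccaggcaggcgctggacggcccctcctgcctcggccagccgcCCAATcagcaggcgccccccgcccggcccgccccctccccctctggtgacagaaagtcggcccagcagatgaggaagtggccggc
Fads3 (chr19:10041298-10041597, plus strand, 5′ to 3′): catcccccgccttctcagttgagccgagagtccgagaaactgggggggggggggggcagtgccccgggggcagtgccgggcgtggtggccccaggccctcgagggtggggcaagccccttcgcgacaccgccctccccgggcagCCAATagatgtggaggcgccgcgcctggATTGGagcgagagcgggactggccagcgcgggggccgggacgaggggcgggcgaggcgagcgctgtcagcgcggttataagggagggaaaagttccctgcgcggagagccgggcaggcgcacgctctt
Elovl5 (chr9:77917115-77917414, plus strand, 5′ to 3′): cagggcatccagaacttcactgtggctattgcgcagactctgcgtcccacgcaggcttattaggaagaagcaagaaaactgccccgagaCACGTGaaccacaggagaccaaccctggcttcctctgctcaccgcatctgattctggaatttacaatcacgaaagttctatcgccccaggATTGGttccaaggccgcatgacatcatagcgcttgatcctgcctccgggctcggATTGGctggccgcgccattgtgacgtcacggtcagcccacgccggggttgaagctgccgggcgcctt
Fads2 (chr19:10101454-10101753, minus strand, 5′ to 3′): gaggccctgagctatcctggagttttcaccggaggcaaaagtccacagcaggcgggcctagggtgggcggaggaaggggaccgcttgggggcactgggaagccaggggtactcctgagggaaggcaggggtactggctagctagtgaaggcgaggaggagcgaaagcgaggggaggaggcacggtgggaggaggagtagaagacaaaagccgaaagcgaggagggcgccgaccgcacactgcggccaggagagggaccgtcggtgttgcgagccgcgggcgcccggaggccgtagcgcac
The Elovl1 window, the first of the start sites listed for this gene, held a CCAAT box at -35 from the start site. The Elovl5 window held an E-box at -161 and a CCAAT box on the other strand (ATTGG) at -71 and again at -17. The Fads3 window held CCAAT at -106 and ATTGG at -78. No match was found in the windows of Elovl6 and Fads2, which says only that these letters are not in these windows, and the Elovl7 window, not shown, also had none. Among all 32851 promoters of that length, 37.4% held a CCAAT box, 7.15% an E-box, 13.6% a TATA box and 1.24% the sterol regulatory element.

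In level, Scd1 dwarfed the others. It made up 96.5% to 97.5% of the summed scaled FPKM of the 10 genes in LFD libraries, 96.1% to 97.0% in HFD estradiol and only 90.8% to 94.3% in HFD placebo, and it ranked between the third and the tenth place among all genes of a library. By group medians of scaled FPKM, which is per length, the order in LFD was Scd1, Scd2, Fads3, Elovl5, Fads1, Elovl6, Elovl1, Fads2, Elovl3 and Elovl7. In HFD placebo Elovl1 stood in the fifth place and Elovl6 in the eighth, behind Fads1 and Fads2. In HFD estradiol the order of the first places was as in LFD down to Fads1, with Elovl6 again in the eighth. Neighbours in these orders often overlapped: in HFD placebo Scd2 ran from 7.69 to 14.1 and Fads3 from 6.95 to 8.90.

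**Figure D1:**
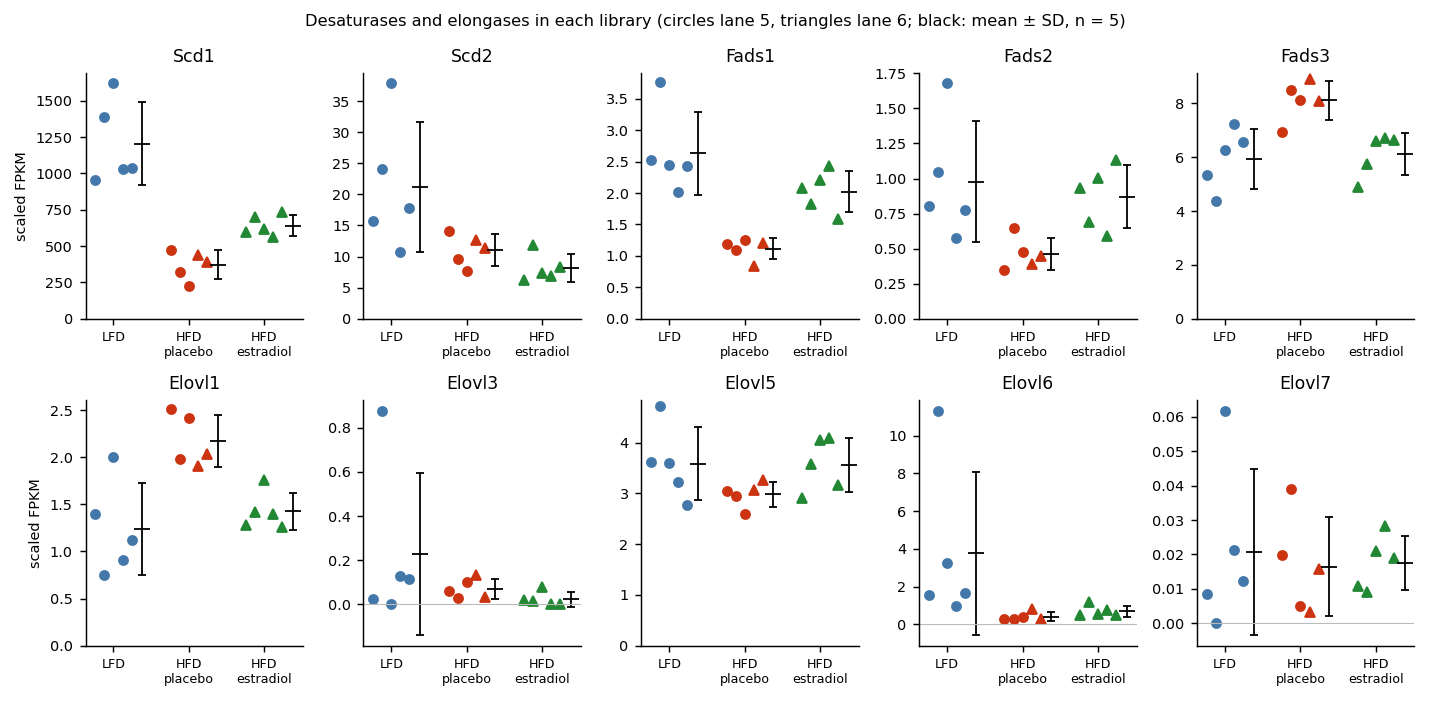
Scaled FPKM (vertical axis, linear, a separate scale per gene) of the 10 desaturase and elongase genes in each library by group, circles for lane 5 and triangles for lane 6, with the mean and SD of 5 mice in black. Scd1, Fads1 and Elovl6 had no placebo library as high as the lowest LFD library, and Elovl3 and Elovl7 lay near 0 except for LFD 2 in Elovl3.

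The first comparison set HFD placebo beside LFD and addresses the high-fat diet together with the pellet surgery in this fat depot. Scd1, Scd2, Fads1 and Elovl6 fell, while Fads3 and Elovl1 rose; with FPKM as deposited Scd2 and Fads1 stood at 0.30 and 0.018, which is -0.46 and -0.75 relative to the median of all genes. Of the 7 tested genes 2 were higher and 4 lower, beside 21.3% higher and 21.9% lower among all tested genes. The groups did not overlap for 3 of the 7, Scd1, Fads1 and Elovl6, beside 27.6% of all tested genes. In the 3 placebo libraries of lane 5 against LFD, all of that lane, 3 of the 7 were called, Scd1, Fads1 and Elovl1. Among all 5625 tested genes 1065 were called higher and 985 lower in that setting.

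Scd1, the main stearoyl-CoA desaturase of fat (GRCm38 chromosome 19, 44394455 to 44407879, minus strand), had scaled FPKM of 952, 1388, 1619, 1028 and 1039 in LFD libraries 1 to 5. In HFD placebo it had 473, 325, 227, 442 and 390. Every placebo library lay below every LFD library, and the lowest was placebo 3. The means were 371 ± 98.6 and 1205 ± 286 (SD, n = 5 each), a log2 fold change of -1.71 (SE 0.20, limma adjusted p = 7.8e-06), or 69.5% lower on that scale. Within lane 5 it was -1.85 (limma adjusted p = 3.9e-04), and as deposited -0.56 (limma adjusted p = 0.346), which is -1.33 relative to the median of all genes.

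Scd2, a close relative best known from brain and from newborn tissue (chromosome 19, 44293674 to 44306864, plus strand), lies near Scd1, with Scd4 between them. Its scaled FPKM was 15.6, 24.01, 37.9, 10.8 and 17.8 in LFD and 14.1, 9.56, 7.69, 12.6 and 11.4 in HFD placebo. LFD 4 lay inside the placebo range, and LFD 3 was well above the rest. The log2 fold change was -0.79 (95% interval -1.34 to -0.24, limma adjusted p = 0.0217). The call was lost within lane 5 (-0.88, limma adjusted p = 0.0694), without LFD 2, LFD 3 or placebo 3 (limma adjusted p = 0.0519, 0.0511 and 0.0593), without the library highest in Ucp1 in each group (limma adjusted p = 0.0612) and with a constant sum (-0.36, limma adjusted p = 0.274).

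Scd1 fell more than Scd2. Their ratio within a library, which no scaling can move, was 60.9, 57.8, 42.8, 95.4 and 58.3 in LFD and 33.6, 33.96, 29.5, 34.9 and 34.3 in HFD placebo. The placebo ratios of both lanes were close to each other and lay below every LFD ratio, a difference of -0.87 on the log2 scale (exact two-sided permutation test, p = 0.0079, the smallest possible with 5 against 5, and adjusted p = 0.0170 over 15 ratio tests). The coding sequences of Scd1 and Scd2 are 89.8% identical, and 3.03% of the 50-base stretches of the Scd1 transcript also occur in that of Scd2, so reads could be split between them and the values are uncertain to that extent. Scd3, 90.4% identical to Scd1 in coding sequence, stood at 0.308% to 0.555% of the Scd1 level over the libraries and Scd4 at 0.0486% to 0.0794%. Scd3 had a mean of 4.55 ± 1.26 in LFD, falling to 1.67 ± 0.525 in HFD placebo (a log2 change of -1.05, limma adjusted p = 3.9e-05), and how far its value is its own or reads of Scd1 was not tested.

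Fads1, which makes the last desaturation toward arachidonic acid (chromosome 19, 10182888 to 10196877, plus strand), had scaled FPKM of 2.53, 3.76, 2.44, 2.01 and 2.44 in LFD and 1.18, 1.09, 1.25, 0.838 and 1.21 in HFD placebo. The groups were apart, with all placebo libraries below 1.26 and all LFD libraries above 2.00. The log2 fold change was -0.77 (SE 0.11, limma adjusted p = 3.8e-05), and -0.73 within lane 5 (limma adjusted p = 0.0020). Fads2, the enzyme of the first step (chromosome 19, 10062765 to 10101746, minus strand), was below the tested level, at 0.807, 1.05, 1.68, 0.578 and 0.775 in LFD and 0.346, 0.644, 0.472, 0.389 and 0.445 in HFD placebo. In a fit without the filter its log2 fold change was -0.42 (95% interval -0.68 to -0.16, limma adjusted p = 0.0236), and the groups overlapped only through LFD 4 and placebo 2. The ratio of Fads1 to Fads2 ran from 1.45 to 3.59 in LFD and from 1.69 to 3.41 in HFD placebo, a log2 difference of -0.20 that did not pass (exact permutation test, p = 0.484, adjusted p = 0.559).

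Fads3, the neighbour of Fads2 on the opposite strand (chromosome 19, 10041569 to 10060110, plus strand), went the other way. Its scaled FPKM was 5.36, 4.36, 6.27, 7.22 and 6.56 in LFD and 6.95, 8.51, 8.13, 8.90 and 8.09 in HFD placebo. Only LFD 4 at 7.22 reached above the lowest placebo library. The log2 fold change was 0.40 (SE 0.11, limma adjusted p = 0.0094), but 0.36 within lane 5 and 0.28 without the library highest in Ucp1 in each group did not pass (limma adjusted p = 0.0741 and 0.0527). The ratio of Fads3 to Fads2 was 6.64, 4.16, 3.72, 12.5 and 8.46 in LFD and 20.1, 13.2, 17.2, 22.9 and 18.2 in HFD placebo. The 5 placebo ratios, from both lanes, lay above every LFD ratio. The log2 difference was 1.49 (exact permutation test, p = 0.0079, adjusted p = 0.0170).

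Among the elongases, Elovl6, which makes stearate from palmitate (chromosome 3, 129532355 to 129638495, plus strand), showed the widest spread. It had scaled FPKM of 1.58, 11.3, 3.28, 0.973 and 1.68 in LFD and 0.296, 0.267, 0.410, 0.805 and 0.301 in HFD placebo. LFD 2 stood far above all other libraries, and placebo 4, the highest of its group, was still below LFD 4. The log2 fold change was -1.41 (95% interval -2.15 to -0.66, limma adjusted p = 0.0042), -0.98 without LFD 2 (limma adjusted p = 7.2e-04), and -1.49 within lane 5, where it did not pass (limma adjusted p = 0.0665). No placebo library reached the filter level of 1, so Elovl6 was tested mostly through its high LFD values. Its calls against LFD are not independent of that filter. LFD 2 and placebo 4 also had the highest Ucp1 of their groups, at 34.3 and 26.6. Ucp1 is the uncoupling protein of brown and beige fat cells. HFD estradiol differed: its highest Elovl6, 1.19 in estradiol 2, stood with its lowest Ucp1, 0.0161. Without the library highest in Ucp1 in each group the log2 fold change of Elovl6 was -1.07 (limma adjusted p = 5.6e-04).

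Elovl1, the elongase of very long saturated chains (chromosome 4, 118428093 to 118432953, plus strand), rose from 1.40, 0.750, 2.00, 0.911 and 1.12 in LFD to 2.52, 1.98, 2.42, 1.91 and 2.03 in HFD placebo. LFD 3 lay within the placebo range and the other LFD libraries below it. The log2 fold change was 0.52 (SE 0.12, limma adjusted p = 0.0019), and 0.59 within lane 5 (limma adjusted p = 0.0167). Elovl5, the elongase of polyunsaturated chains (chromosome 9, 77917364 to 77984519, plus strand), had 3.62, 4.73, 3.59, 3.23 and 2.77 in LFD and 3.05, 2.96, 2.60, 3.06 and 3.26 in HFD placebo. It was not called, with a log2 fold change of -0.19 (95% interval -0.41 to 0.027, limma adjusted p = 0.147). The ratio of Elovl6 to Elovl5 was at least 0.301 in LFD and at most 0.263 in HFD placebo, and that of Elovl6 to Elovl1 at least 1.07 and at most 0.422. The log2 differences were -2.47 and -3.60 (exact permutation test, p = 0.0079 and adjusted p = 0.0170 for each).

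Elovl3 (chromosome 19, 46131897 to 46135694, plus strand) and Elovl7 (chromosome 13, 108214404 to 108285683, plus strand) were close to the limit of detection. Elovl3 had scaled FPKM of 0.0264, 0.875, 0, 0.130 and 0.114 in LFD and 0.0298 to 0.133 in HFD placebo, and an estimated 1.99 fragments in the median library. Elovl7 did not exceed 0.0616 in any library, an estimated 6.57 fragments at most. Neither difference passed in a fit without the filter (limma adjusted p = 0.446 for Elovl3 and 0.839 for Elovl7), and Elovl3 held at most an estimated 27.8 fragments in any library.

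**Figure D2:**
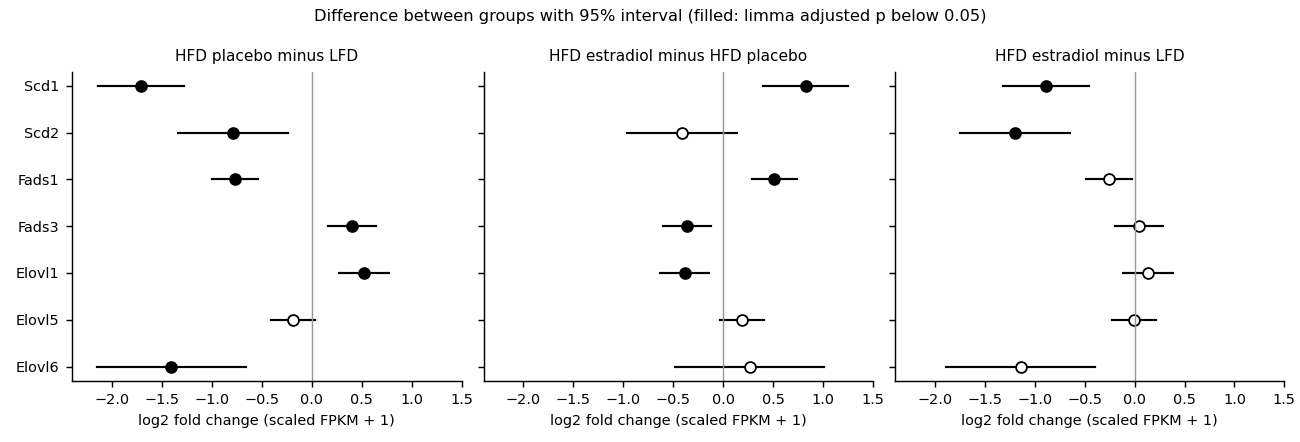
Log2 fold change on the log2(scaled FPKM + 1) scale (horizontal axis) with its 95% interval for the 7 tested genes in the 3 comparisons, filled where the limma adjusted p was below 0.05, n = 5 mice per group. HFD placebo minus LFD runs from -1.71 for Scd1 to 0.52 for Elovl1, and with FPKM as deposited Scd2, Fads1 and Elovl5 change sign there.

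Markers of adipocytes and macrophages moved with these genes. The summed scaled FPKM of 6 adipocyte markers (Adipoq, Plin1, Fabp4, Lipe, Cidec and Pnpla2) ran from 1177 to 1797 in LFD and from 798 to 1343 in HFD placebo, and all 6 fell with the factors used, while as deposited none was called and their median was 0.22. Adipoq, which encodes adiponectin, averaged 80.2 ± 21.5 in HFD placebo against 167 ± 25.9 in LFD. The sum of 6 macrophage markers (Cd68, Emr1, Csf1r, Lyz2, Trem2 and Itgax) ran from 32.2 to 92.7 in LFD and from 113 to 368 in HFD placebo, and all 6 rose under each scaling. Trem2 and Itgax had at most 0.389 and 0.288 in LFD, so they passed the filter only through high-fat libraries. Cd68, a lysosomal protein of macrophages, averaged 31.7 ± 10.3 against 2.73 ± 0.659. Markers of brown and beige fat summed to 8.79 to 94.4 in LFD and 2.54 to 65.8 in HFD placebo, with none of 4 tested called. Markers of prostate and seminal vesicle epithelium summed to at most 2.12 in any library, and Svs2 was listed at 0 in all. In bulk tissue fewer adipocytes and less RNA per adipocyte cannot be told apart, and the part of cell makeup in the differences of the desaturases and elongases was not tested. Set against the mean log2 level of the 6 adipocyte markers of the same library, Scd1 lay 0.83 lower in HFD placebo than in LFD and Elovl6 1.83 lower on the log2 scale, with overlapping groups, given as values with no test. By the same measure Fads3 lay 1.35 and Elovl1 1.77 higher, with no overlap, Fads1 differed by -0.34, Scd2 by 0.045 and Elovl5 by 0.64.

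The genes of the enzymes that supply the substrate also differed between HFD placebo and LFD. All 7 genes of fatty acid synthesis were lower in HFD placebo, with a median log2 fold change of -2.07, against -0.014 over all tested genes, and 4 of them stayed called as deposited. Thrsp, a lipogenic regulator of fat, averaged 7.80 ± 1.00 against 86.2 ± 34.9, Fasn, which makes palmitate, had a log2 fold change of -2.54, and Acaca and Acacb, the acetyl-CoA carboxylases, had -2.42 and -1.54 (limma adjusted p = 7.2e-07, 1.0e-05, 2.8e-06 and 7.8e-06). Acacb had median scaled FPKM of 0.761 in HFD placebo and 0.781 in HFD estradiol. It passed the filter mostly through LFD libraries, so its calls against LFD are not independent of it. Of 10 tested regulators 6 fell and none rose. Among them were Srebf1 (log2 fold change -0.88), the adipocyte factor Pparg (-0.91), Mlxipl, which encodes the carbohydrate-response factor ChREBP (-0.83), and Insig2 (-0.35). Mlxipl and Insig2 had median scaled FPKM of 0.864 and 0.978 in HFD placebo. They reached the filter level mostly outside that group, so their calls against it are not independent of the filter. As deposited no regulator was called lower and 1 was called higher, Srebf1, Pparg and Insig2 stood at 0.16, 0.18 and 0.33, and the median of the 10 was 0.43, against 0.77 for all genes. With a constant sum 1 of the 10 was called lower. Nr1h3, which encodes a liver X receptor, had -0.098 (limma adjusted p = 0.399).

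The partners of the elongases and desaturases gave a mixed picture. Of 5 tested genes of the other steps of the elongation cycle, the dehydratase Ptplad2 rose (log2 fold change 0.61), the enoyl reductase Tecr and the dehydratase Ptplb fell (-0.39 and -0.38; limma adjusted p = 8.2e-04, 0.0122 and 0.0098), and the ketoreductase Hsd17b12 had -0.30 (limma adjusted p = 0.114). As deposited Tecr and Ptplb stood at 0.69 and 0.51, against 0.77 for all genes, and with a constant sum no partner was called lower. Of 5 genes of the electron supply to desaturases, the cytochrome b5 gene Cyb5 fell by 0.81 on the log2 scale and Cyb5r4 rose by 0.37 (limma adjusted p = 3.7e-05 and 0.0067), and as deposited Cyb5 stood at 0.32. Cyb5r1 and Cyb5b had 0.12 and -0.21 and did not pass. Ptplad2 had at most 0.982 scaled FPKM in LFD, and Cyb5r4 a median of 0.717 there. Both reached the filter level mostly through high-fat libraries, so their calls are not independent of the filter. Of the 4 tested genes that activate fatty acids or place them in phospholipids (Acsl1, Acsl4, Acsl5 and Lpcat3), limma called none in any of the 3 comparisons, and as deposited 3 were called higher in HFD placebo than in LFD.

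**Figure D3:**
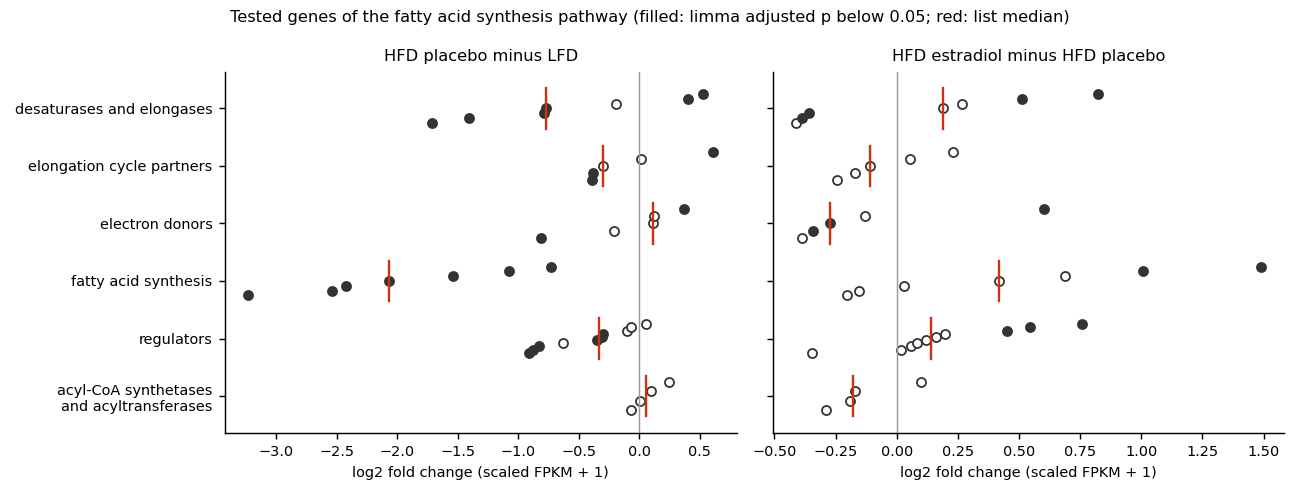
Log2 fold change on the log2(scaled FPKM + 1) scale (horizontal axis) of each tested gene of 6 lists, filled where the limma adjusted p was below 0.05, with the list median in red, for HFD placebo minus LFD and HFD estradiol minus HFD placebo. The fatty acid synthesis genes have medians of -2.07 and 0.42, and as deposited of -0.97 and 0.097.

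The second comparison set HFD estradiol beside HFD placebo and addresses the effect of estradiol on the high-fat diet. It shares the placebo libraries with the first, so the values below stand beside those above and are no independent check of them. Scd1 and Fads1 rose and Fads3 and Elovl1 fell, 2 of 7 tested genes higher and 2 lower, beside 14.3% higher and 16.1% lower among all tested genes. As deposited none of the 4 was called, with the same signs. The groups did not overlap for these 4, beside 21.2% of all tested genes. With lane as a term in the fit, and within lane 6, where 2 placebo libraries stand against 5 of estradiol, only Fads1 was called. Among all 5625 tested genes 317 were called higher and 394 lower with lane as a term, and 299 and 382 within lane 6.

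Scd1 had scaled FPKM of 595, 697, 614, 564 and 731 in HFD estradiol, each above the highest placebo library at 473 and below the lowest LFD library at 952. The log2 fold change against HFD placebo was 0.82 (95% interval 0.40 to 1.25, limma adjusted p = 0.0055). It was 0.62 with lane as a term and within lane 6 (limma adjusted p = 0.141 and 0.0739). With a constant sum it was 0.77 and did not pass (limma adjusted p = 0.0728).

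Scd2 did not follow Scd1. It had 6.15, 11.8, 7.31, 6.92 and 8.29 in HFD estradiol, with estradiol 2 and estradiol 5 inside the placebo range and the others below it. Its log2 fold change of -0.41 was not called (95% interval -0.96 to 0.14, limma adjusted p = 0.250). The ratio of Scd1 to Scd2 was 96.8, 58.9, 84.0, 81.5 and 88.2, each above the highest placebo ratio of 34.9, and so within lane 6 as well. The log2 difference was 1.28 (exact permutation test, p = 0.0079, adjusted p = 0.0170). Of the 5 ratios tested, this one and that of Fads3 to Fads2 passed in this comparison.

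Fads1 had 2.08, 1.82, 2.21, 2.43 and 1.58 in HFD estradiol, all above the highest placebo value of 1.25. Its log2 fold change was 0.51 (SE 0.11, limma adjusted p = 0.0019), with 0.58 within lane 6 (limma adjusted p = 0.0220). Fads2 had 0.933, 0.692, 1.00, 0.590 and 1.14, with only estradiol 4 inside the placebo range, and in a fit without the filter a log2 fold change of 0.35 (95% interval 0.093 to 0.61, limma adjusted p = 0.0709). Fads3 had 4.90, 5.76, 6.60, 6.72 and 6.64, all below the lowest placebo library at 6.95 by a narrow margin. Its log2 fold change of -0.36 (limma adjusted p = 0.0250) became -0.42 within lane 6 (limma adjusted p = 0.0727), and the call was also lost without placebo 2, estradiol 1 or estradiol 2 (limma adjusted p = 0.0539, 0.0615 and 0.0542) and without both placebo libraries of lane 6 (limma adjusted p = 0.0958). The ratio of Fads3 to Fads2 was 5.25, 8.32, 6.57, 11.4 and 5.85, below every placebo ratio, a log2 difference of -1.33 (exact permutation test, p = 0.0079, adjusted p = 0.0170).

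Elovl1 had 1.28, 1.42, 1.76, 1.40 and 1.26 in HFD estradiol, all below the lowest placebo library at 1.91. Its log2 fold change was -0.39 (95% interval -0.64 to -0.14, limma adjusted p = 0.01996). It was -0.30 within lane 6 (limma adjusted p = 0.0631) and lost its call without placebo 1 (-0.35, limma adjusted p = 0.0511). Elovl5 had 2.91, 3.57, 4.05, 4.09 and 3.16 and a log2 fold change of 0.19 that was not called (95% interval -0.031 to 0.41, limma adjusted p = 0.186), -0.12 as deposited. Elovl6 had 0.516, 1.19, 0.529, 0.781 and 0.524. These values overlapped placebo 4 at 0.805, and the log2 fold change was 0.27 with a wide interval (-0.48 to 1.01, limma adjusted p = 0.606). The ratio of Elovl6 to Elovl1 ran from 0.301 to 0.838 against 0.118 to 0.422 (log2 difference 1.43, exact permutation test, p = 0.0317, adjusted p = 0.0529), and placebo 4 was the library that overlapped. Without it this ratio and that of Elovl6 to Elovl5 passed (log2 differences 1.74 and 0.83, exact permutation test, adjusted p = 0.0265 and 0.0476). Elovl3 was listed at 0 in 2 estradiol libraries and at most at 0.0803.

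**Figure D4:**
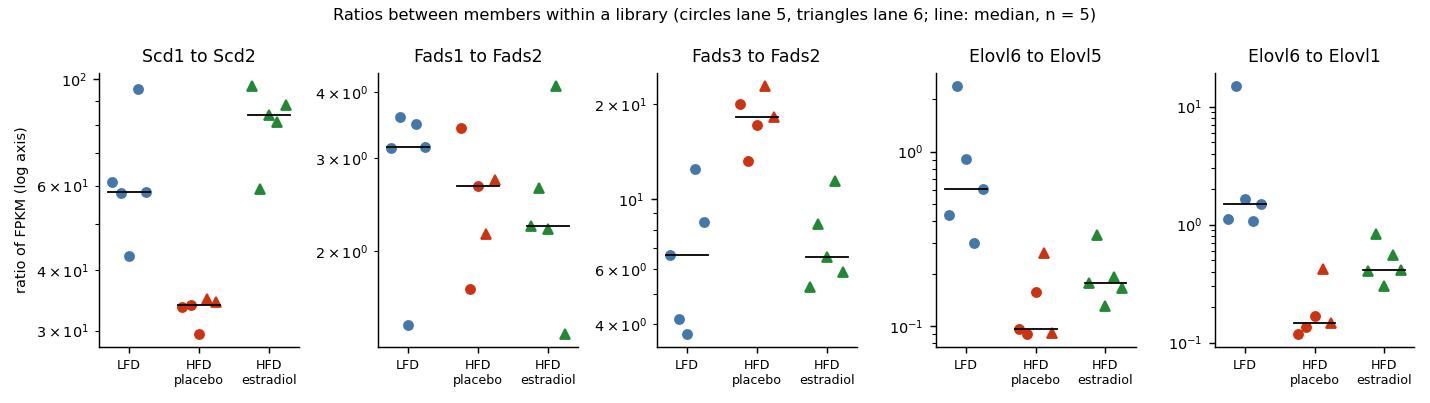
Ratio of FPKM between pairs of these genes within each library (vertical axis, log scale) by group, circles for lane 5 and triangles for lane 6, with the group median as a line, n = 5 mice per group. The ratio of Scd1 to Scd2 lies between 29.5 and 34.9 in HFD placebo, below every LFD and estradiol library, and that of Fads3 to Fads2 lies above them.

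Adipocyte and macrophage markers moved here as well. The adipocyte markers summed to 1175 to 1685 in HFD estradiol, and 5 of 6 rose against HFD placebo, the exception being Cidec (limma adjusted p = 0.0545); as deposited none was called, with lane as a term 3 were and within lane 6 only 1. The macrophage markers summed to 40.2 to 119, and all 6 fell, 5 of them also as deposited and 3 with lane as a term. In HFD estradiol Trem2 and Itgax reached the filter level only in estradiol 1, at 3.26 and 1.64. Both passed the filter through placebo libraries, so their calls here are not independent of it. Relative to the adipocyte markers, Scd1 differed by 0.091, Fads1 by 0.12 and Elovl6 by 0.080 on the log2 scale between HFD estradiol and HFD placebo, with overlapping groups. By the same measure Scd2 lay 1.19, Fads3 1.15 and Elovl1 1.35 lower, with no overlap. These are values with no test, and the part of cell makeup in the differences was not tested.

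Of the 7 fatty acid synthesis genes Thrsp and Acaca rose with estradiol and none fell, with a list median of 0.42, against 0.0078 over all tested genes. As deposited no gene of this list, of the regulators, of the elongation partners or of the electron supply was called in this comparison (limma adjusted p = 0.201 for Thrsp and 0.575 for Acaca). Thrsp had a mean of 25.3 ± 10.3 in HFD estradiol and 7.80 ± 1.00 in HFD placebo, 1.49 apart on the log2 scale (limma adjusted p = 7.2e-04, and 1.38 within lane 6, limma adjusted p = 0.0441). Acaca had 1.01 (limma adjusted p = 0.0065), and 0.83 within lane 6, where it did not pass (limma adjusted p = 0.0881). Fasn had 0.69 (limma adjusted p = 0.106). Of the 10 regulators Srebf1, Mlxipl and Pparg rose, by 0.45, 0.76 and 0.54, and only Mlxipl passed within lane 6 (0.70, limma adjusted p = 0.0438). Nr1h3 had 0.16 (limma adjusted p = 0.194). Cyb5 rose by 0.60, and Cyb5r1 and Cyb5r4 had -0.27 and -0.34 (limma adjusted p = 8.4e-04, 0.0132 and 0.0152). With lane as a term none of these 3 passed (limma adjusted p = 0.0538, 0.0758 and 0.235), while Cyb5r1 passed within lane 6 (limma adjusted p = 0.0267). Cyb5r4 had at most 0.987 scaled FPKM in HFD estradiol and passed the filter mostly through placebo libraries. Of the 5 elongation partners limma called none, with Ptplad2 at -0.24 and Tecr at 0.23 (limma adjusted p = 0.149 for both).

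The third comparison, HFD estradiol against LFD, sets the treated mice beside the lean ones. Scd1 and Scd2 were lower in HFD estradiol, 2 of 7 tested genes and none higher, beside 3.73% lower and 3.96% higher among all tested genes. As deposited neither was called. Only Scd1 had groups that did not overlap, beside 8.07% of all tested genes. All LFD libraries lay on lane 5 and all estradiol libraries on lane 6, so no comparison within a lane could be made, and diet, pellet, estradiol and lane cannot be told apart by these groups alone. With lane as a term, which then rests on the placebo libraries, neither passed.

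Scd1 differed by a log2 fold change of -0.89 (95% interval -1.32 to -0.46, limma adjusted p = 0.0144), with -1.23 and a limma adjusted p of 0.0646 with lane as a term. It was -0.49 with a constant sum and -0.079 as deposited (limma adjusted p = 0.205 and 0.895), which is -0.74 and -0.57 relative to the median of all genes. Scd2 differed by -1.20 (95% interval -1.75 to -0.65, limma adjusted p = 0.0101), with -1.42 and 0.107 with lane as a term and -0.44 and 0.380 as deposited. Without the library highest in Ucp1 in each group the limma adjusted p was 0.0631 for Scd1 and 0.0607 for Scd2. Their ratio ran from 42.8 to 95.4 in LFD and from 58.9 to 96.8 in HFD estradiol, and the log2 difference of 0.41 did not pass (exact permutation test, p = 0.127, adjusted p = 0.190), though 0.57 without LFD 4 did (adjusted p = 0.0397).

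Fads1 had -0.26 (95% interval -0.48 to -0.027, limma adjusted p = 0.177), and 0.32 as deposited. The log2 fold changes of Fads3, Elovl1 and Elovl5 were 0.043 (95% interval -0.20 to 0.28), 0.14 (-0.11 to 0.39) and -0.0035 (-0.22 to 0.22), and none was called. Elovl6 had -1.14 (95% interval -1.89 to -0.40, limma adjusted p = 0.0606). Without LFD 2 this was -0.71 with less spread and passed (limma adjusted p = 0.0369), and without LFD 4 it was -1.37 and passed as well (limma adjusted p = 0.0261). The ratios of Elovl6 to Elovl5 and to Elovl1 were lower in HFD estradiol by 1.90 and 2.18 on the log2 scale (exact permutation test, p = 0.0159 and 0.0079, adjusted p = 0.0298 and 0.0170), the first of which overlapped between groups. The first lost its call without estradiol 1, 3 or 5 (exact permutation test, adjusted p = 0.0529 each) and the second without estradiol 3 (adjusted p = 0.0510).

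All 7 fatty acid synthesis genes were lower in HFD estradiol than in LFD, with a median log2 fold change of -1.51. None was called as deposited. With lane as a term 1 was called, Acacb (limma adjusted p = 0.0279), which passed the filter mostly through LFD libraries. Fasn had -1.85 and Thrsp -1.74 (limma adjusted p = 0.0018 and 0.0012). Of the 10 regulators limma called none, with Srebf1 at -0.43 and Mlxipl at -0.068 (limma adjusted p = 0.0624 and 0.842). Of the partner enzymes Ptplb (-0.55) and Cyb5b (-0.59) were lower (limma adjusted p = 0.0057 and 0.0300), but as deposited they stood at 0.0060 and 0.14, and neither was called lower with a constant sum. With lane as a term Ptplb kept its call and Cyb5b did not (limma adjusted p = 0.0305 and 0.170). None of the 6 adipocyte markers was called, and of the macrophage markers Cd68 was higher (0.90, limma adjusted p = 0.0270).

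**Figure D5:**
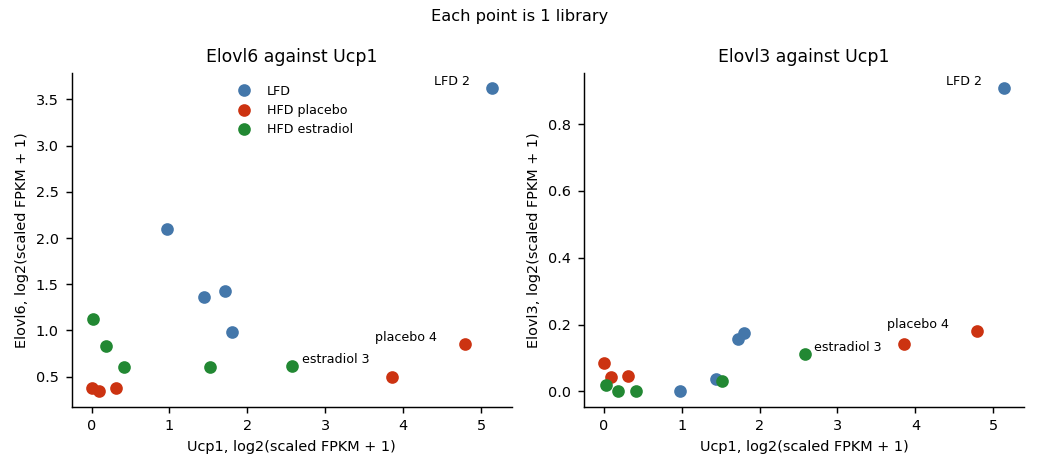
Elovl6 (left) and Elovl3 (right) against Ucp1, all as log2(scaled FPKM + 1), 1 point per library and colour by group. LFD 2 is highest on both axes in both panels. In HFD placebo, placebo 4 is highest and placebo 3 next for Ucp1, Elovl6 and Elovl3, with placebo 3 at 13.5 for Ucp1 and 0.410 for Elovl6. In HFD estradiol the highest Elovl6 is that of estradiol 2, which has the lowest Ucp1.

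The genes whose log2 values ran most like each tested member over the 15 libraries are given by Pearson's r as a description, since the libraries share groups, lanes and scaling. Scd1 ran most like Rbp4, which encodes a retinol-binding protein (r = 0.95), A530016L24Rik (0.95) and Scd3 (0.94). Scd2 ran most like Acss2, an acetyl-CoA synthetase (0.93), Ppp2ca (0.92) and Tmem179 (0.91). Elovl6 ran most like Gpd2 (0.97), Tkt, the transketolase of the pentose phosphate pathway (0.96), and Pdha1, a subunit of pyruvate dehydrogenase (0.94). Elovl1 ran most like Stat6 (0.96), Tubb2a (0.93) and Msn (0.91), Fads3 most like Angptl4 (0.90), Bcar3 (0.88) and Fbxl5 (0.87), Fads1 most like the nuclear RNA Neat1 (0.92), Ralgapa2 (0.92) and Ugp2 (0.90), and Elovl5 most like Ndufa5, Top1 and Cdc34 (0.88, 0.88 and 0.87). Of the other genes of these families, Fads6 stayed at or below 0.294 scaled FPKM, Elovl4 at or below 0.0306, and Elovl2 was listed at 0 in all libraries except 1 in LFD, at 0.0177.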

How the data were processed

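Gene-level FPKM of 15 libraries, 5 mice per group, were deposited. Per the labels' protocols, ribosomal RNA was removed from total RNA and stranded Illumina libraries were prepared, and per the submitters' processing notes STAR, Cufflinks and mm10 were used by the authors to make the deposited FPKM. The annotation, the handling of reads that map to several places and the use of strand in counting are not given in the sources used here. A library's lane stands in the name of its deposited table.

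From these FPKM, a factor per library was computed by median of ratios over 5874 genes above 0 in all libraries. A library's FPKM summed to 34449 to 105910, of which the small RNA gene Mir6236 took 10.2% to 53.1%, and 13891 to 16648 genes were above 0. Genes at a scaled FPKM of 1 in at least 5 libraries, 5625 in all, were tested as log2(scaled FPKM + 1) with limma 3.58.1 in R 4.3.3 (trend, robust, all 15 libraries, group as the only term), Benjamini-Hochberg adjusted over all of them, threshold 0.05. On simulated data of 5625 genes a log2 change of 1 was recovered for 98%, 96% and 95% of changed genes in the 3 comparisons. The simulated noise was normal and independent, with no lane effect, scaling shift or outlying library. Changes below 1 were not simulated, so these rates do not show that genes left uncalled were unchanged. Ratios within a library were tested by exact two-sided permutation (scipy 1.17.1), adjusted over 15 tests. Fragments behind a value were estimated from the spacing of low FPKM in genes with 1 transcript, so depth is an estimate. Coding identity was aligned with Biopython 1.88, and gene positions are from GENCODE on GRCm38. No libraries were identical, and p-values measure the spread between mice.

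The genes and lists were chosen with earlier results of these data known. Of each pathway list at most 4 genes with the smallest adjusted p in HFD placebo against LFD are named, plus Fasn, Srebf1, Mlxipl, Nr1h3, Adipoq, Cd68 and Ucp1. The 3 genes most like each tested member by Pearson's r are named too. Cidec and other marker genes named singly were chosen after their values were seen. Alternatives were FPKM as deposited, a constant sum per library, other pseudocounts and filters, lane as a term, single lanes, a replicate block, the groups compared alone, limma without trend and robust moderation and leaving out each library. Leaving out the 2 placebo libraries of lane 6, or the library highest in Ucp1 in each group (LFD 2, placebo 4 and estradiol 3), was chosen after seeing the data.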

Additional observations from a re-analysis of the deposited data

Results flagged for a closer look

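In groups of 5, a library was singled out where its gap to the next, divided by the range of the group, exceeded 0.71, which chance gives in about 1 of 20 groups. Of 30 groups, 10 genes in 3 groups each, 4 were singled out. Elovl6 in LFD 2 had a scaled FPKM of 11.3, and the other LFD libraries lay between 0.973 and 3.28. Elovl6 in placebo 4 had 0.805, the others of its group 0.267 to 0.410. Elovl3 in LFD 2 had 0.875, the others 0 to 0.130, and Elovl3 in estradiol 3 had 0.0803, the others 0 to 0.0222. Each was the library with the highest Ucp1 of its group, at 34.3 in LFD 2, 26.6 in placebo 4 and 4.97 in estradiol 3. Elovl6 in HFD estradiol was not singled out, and was highest in estradiol 2, with Ucp1 at 0.0161. The part of brown or beige fat cells in these values was not tested.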

How the results depend on the processing

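The limma fit called 2432 genes in HFD placebo against LFD, 1711 in HFD estradiol against HFD placebo and 433 in HFD estradiol against LFD, and 6, 4 and 2 of the 7 tested desaturases and elongases. Without a low-value filter 3908 and 2607 genes were called in the first 2 comparisons, and with a filter of 2 they were 1464 and 1055. As deposited the calls among the 7 were 3, 0 and 0. Over all genes the first comparison had 3016 called higher and 18 lower, the second 276 called and the third 39. With a constant sum the second comparison called 833 genes and 2 of the 7. The third called 1 of the 7, beside 536 genes higher and 28 lower. With lane as a term the second called 711 genes and 1 of the 7, and the third 161 and 0. Within lane 5 the first called 3 of the 7, beside 1065 genes higher and 985 lower. Within lane 6 the second called 681 genes and 1 of the 7. Without the library highest in Ucp1 in each group the third called 262 genes and 0 of the 7. Leaving out 1 library gave 2157 to 2506, 1415 to 1842 and 300 to 515 genes, and 5 to 6, 3 to 4 and 2 to 3 of the 7. Log2 fold changes that changed sign as deposited were Scd2 at 0.30, Fads1 at 0.018 and Elovl5 at 0.73 in the first comparison, Elovl5 at -0.12 in the second, and Fads1 at 0.32 and Elovl5 at 0.62 in the third. With a constant sum Elovl5 reached 0.16 in the first, and Fads1 0.030 and Elovl5 0.31 in the third. In the third Fads3 had -0.060 with lane as a term and -0.073 without the libraries highest in Ucp1, where Elovl5 had 0.041. Leaving out 1 library there, Fads3 ran from -0.047 to 0.11, Elovl5 from -0.071 to 0.080 and the ratio of Fads3 to Fads2 from -0.033 to 0.40. The ratio of Fads1 to Fads2 in the second ran from -0.25 to 0.14, and was 0.16 with a pseudocount of 1. The cause of these changes was not tested, except that filters change how many genes are tested and left-out libraries how many samples. Over single genes and ratios, 725 alternatives kept direction and call, 38 lost the call, 8 gained it and 23 turned the sign. Replicate numbers name different mice, and same-numbered libraries deviated together with correlations of -0.21 to 0.36. The replicate block gave 2429, 1690 and 431 genes and 6, 4 and 2 of the 7, and changed no call among them. Elovl3 and Elovl7 rested on a median of 1.99 and 1.47 estimated fragments and at most 27.8 and 6.57, and what difference could be detected at this depth was not tested.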

Other observations

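Markers of other cell types of the depot gave calls in each comparison, and most of those in the first 2 comparisons depended on the scaling. Of 4 markers of adipose progenitors, the stromal cells that give rise to fat cells, limma called Pdgfra higher in HFD placebo than in LFD, and Cd34, Dpp4 and Pi16 higher in HFD estradiol than in HFD placebo. In the latter comparison 0 were called as deposited and within lane 6, and 1 with a constant sum and with lane as a term. Their summed scaled FPKM was 11.9 to 17.01 in LFD and 11.03 to 19.4 in HFD placebo, and HFD estradiol ran higher at 18.3 to 33.3. Of the 2 tested B cell markers, Cd79a and Cd79b, both were lower in HFD placebo than in LFD, also within lane 5, with 1 called under a constant sum or lane as a term and 0 as deposited. Cd79a had median scaled FPKM of 0.393 in HFD placebo and 0.734 in HFD estradiol, and Cd79b 0.858 and 0.901. Both passed the filter mostly through LFD libraries, so their calls against LFD are not independent of it. The 5 lymphocyte markers summed to between 3.47 and 7.77 in LFD. They summed to between 0.478 and 3.77 in HFD placebo, while HFD estradiol had 1.06 to 5.22. The 4 endothelial markers had overlapping sums in the order LFD, HFD placebo and HFD estradiol of 14.03 to 16.9, 12.3 to 17.7 and 12.7 to 16.4. Among them 1 was called lower in HFD placebo than in LFD (Kdr) and 1 higher in HFD estradiol than in HFD placebo (Tek), and neither call was made as deposited or with a constant sum. In HFD estradiol against LFD, which also differ in lane, Pdgfra and Cd34 were higher (0.59 and 0.65, limma adjusted p = 0.0135 and 0.0113). Cd79a was lower there (-0.58, limma adjusted p = 0.0357). Among all tested genes 3.96% were higher and 3.73% lower in that comparison.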
